A study of Mus musculus with 6 samples.

Results

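The 9 genes described here encode the lipoprotein lipase system of adipose tissue and the receptors and apolipoproteins that work beside it: Lpl, Lmf1, Gpihbp1, Angptl4, Angptl2, Apoc1, Apoe, Vldlr and Lrp1. They were taken by symbol from a table of 19928 genes, and all 9 were found. Adipose tissue RNA from KM mice was sequenced in 6 libraries. The 3 control libraries carry the diet label control, and the 3 others come from mice supplemented with RAS (radix Angelica sinensis, the root of Angelica sinensis) at a dose of 10.00 g/kg body weight. Going by its title, the series places the work in mice made obese by a high-fat diet, so both groups may share that diet, although the control label does not name it. The labels give neither fat depot, sex nor age, and do not say whether a sample is 1 animal or several pooled, so the spread between samples may be partly technical. The comparison asks whether RAS feeding altered the RNA level of these genes. All levels are in FPKM, the number of sequenced fragments corrected for the length of the transcript and the depth of the library.

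Lipoprotein lipase frees fatty acids from the triglycerides of chylomicrons and very low density lipoproteins, and fat cells take those fatty acids up for storage. The enzyme is made in adipocytes, folds in the endoplasmic reticulum with the help of lipase maturation factor 1 and is carried to the capillary lumen by GPIHBP1, a protein of capillary endothelial cells. Several angiopoietin-like proteins and the apolipoproteins C1 and C3 restrain it, apolipoprotein C2 activates it, and endocytic lipoprotein receptors take up the particles through apolipoprotein E. Much of the control of lipase activity acts on the protein, so RNA levels describe the expression of these genes and not lipase activity. In bulk tissue, fewer cells of a type and less RNA per cell cannot be told apart.

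None of the 9 genes differed between RAS and control beyond the spread between libraries. In limma's moderated test on log2(FPKM + 1), 0 of 9 had an adjusted p under 0.05 (adjusted p 0.535 to 0.963 over the 9), as was the case for 0% of the 12606 genes tested. An unadjusted p under 0.05 was reached by 0 of 9, against 10.3% of all genes tested. The FPKM ranges of the groups overlapped for each of the 9, while they were apart for 17.9% of all genes tested. The log2 difference, RAS minus control, was positive for 5 and negative for 4, with a median of 0.03, where 43.0% of all genes tested were positive and their median was -0.04. The largest estimate was that of Gpihbp1, at 0.62, followed by Apoc1 at -0.38 and Lrp1 at -0.32. For 7 of the 9, all but Gpihbp1 and Apoc1, the 95% interval of the difference lay inside a log2 change of 1 in either direction, as it did for 90.5% of all genes tested. A miss of the threshold does not show equal expression, and each estimate is therefore given with its interval.

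**Figure D1:**
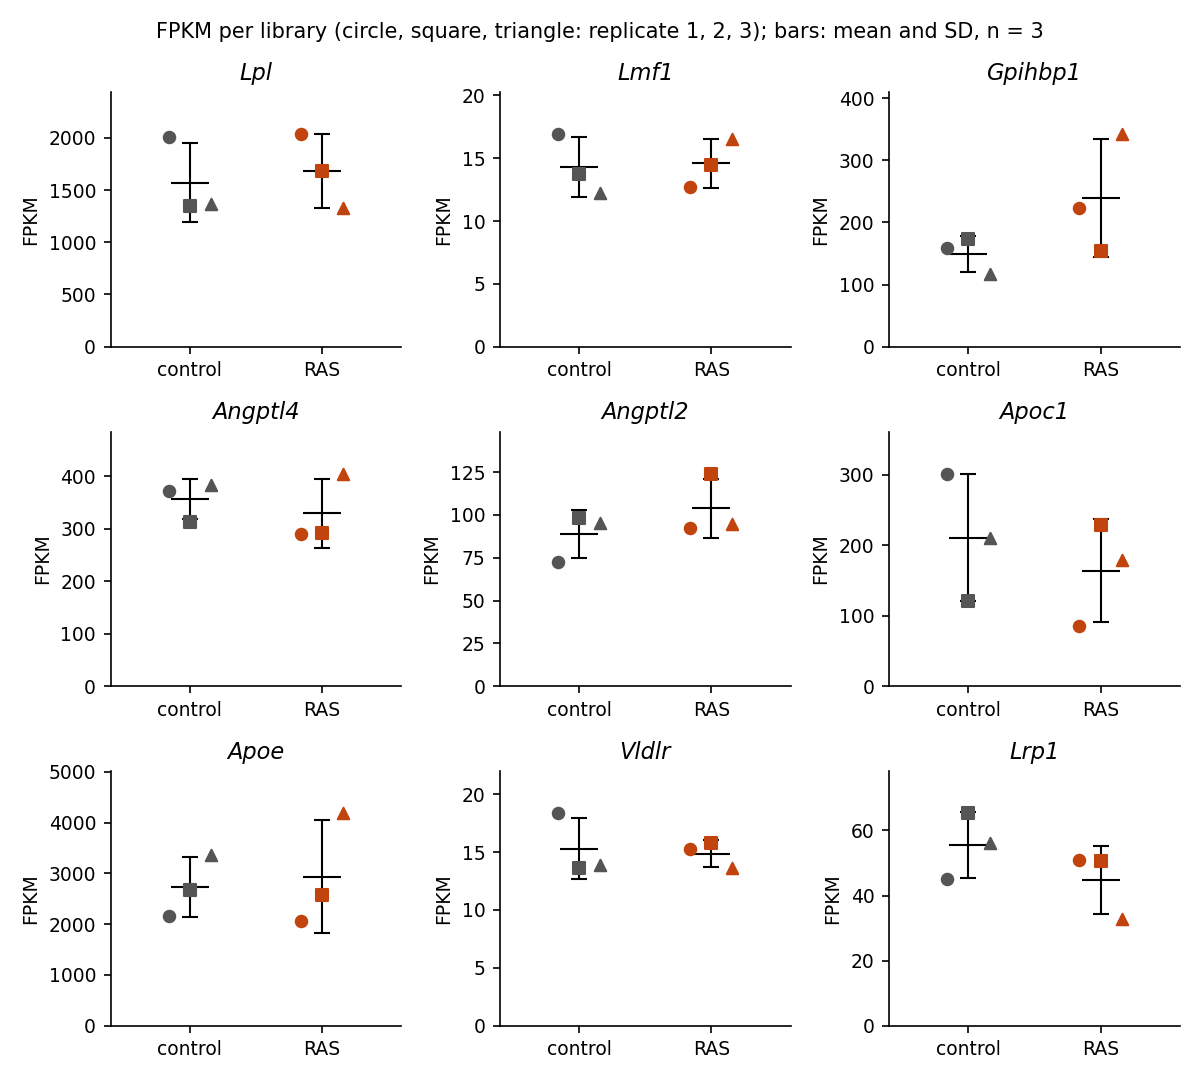
FPKM of the 9 genes in each library, with control in grey and RAS in orange. Circles, squares and triangles are replicates 1, 2 and 3, which the labels do not match between groups, and bars give mean and SD (n = 3 each). The 2 groups overlap in every panel, and RAS 3 is the highest library for Gpihbp1 (342 FPKM) and Apoe (4183 FPKM) and the lowest for Lrp1 (32.7 FPKM).

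Lpl, the lipase itself (NCBI gene 16956; chromosome 8, 68880555 to 68906932, plus strand), was among the most abundant transcripts of the tissue, at rank 20 of 19928 by mean FPKM. It was at 2004, 1343 and 1364 FPKM in controls 1, 2 and 3 and at 2033, 1687 and 1330.1 FPKM in RAS 1, 2 and 3. The highest and the lowest libraries of the 2 groups lay close to each other, and the ranges coincided almost completely. The control mean was 1570.3 ± 376 FPKM and the RAS mean 1683 ± 351 FPKM (here and below ± SD over 3 libraries for a mean FPKM). This gave a log2 difference of 0.10 ± 0.26 (± SE for a log2 difference throughout), with a 95% interval of -0.51 to 0.72 (limma adjusted p = 0.914). Lpl rested on 131961 to 198889 assigned reads per library, so counting error is a small part of that spread. Its listed locus is shared with LOC100861638, and whether this touches the assigned reads was not tested.

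Lmf1, the maturation factor of the lipase (chromosome 17, 25579174 to 25662826, plus strand), was the least abundant of the 9. Its level was 16.9, 13.8 and 12.2 FPKM in the controls and 12.7, 14.5 and 16.6 FPKM in the RAS libraries, the same span in both groups. Its log2 difference was 0.03 ± 0.15, with an interval of -0.33 to 0.39. Together with Vldlr it had the narrowest interval of the 9.

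Gpihbp1, the endothelial carrier and anchor of the lipase (NCBI gene 68453; chromosome 15, 75596658 to 75598213, plus strand), had the largest difference. It was at 158, 173 and 117 FPKM in controls 1, 2 and 3 and at 223, 154 and 342 FPKM in RAS 1, 2 and 3. RAS 1 and RAS 3 stood above every control library, and RAS 2 stood below controls 1 and 2. The means were 149 ± 28.6 FPKM in control and 239.5 ± 95.01 FPKM with RAS. The log2 difference was 0.62 ± 0.30, with an interval of -0.09 to 1.33 (limma unadjusted p = 0.0777, adjusted p = 0.535). Without RAS 3 the difference was 0.33, and without RAS 2 it was 0.90. In RAS 3, transcripts under 1000 bases stood higher and those of 8000 bases or more lower than in the other libraries, as given below for Lrp1.

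The endothelial marker list did not move with Gpihbp1 as a whole. Of its 10 markers, all of which were tested, 5 had a higher and 5 a lower mean with RAS (median log2 -0.03), and their summed level was 514 to 588 FPKM in control and 445 to 638 FPKM with RAS. None of the 10 was at 0 in any library. Pecam1, the adhesion molecule of endothelial junctions, was at 75.5 to 81.2 FPKM in control and 66.4 to 83.7 FPKM with RAS. Cdh5, the cadherin of endothelial junctions, was at 42.8 to 76.4 and 40.0 to 69.4 FPKM. The ratio of Gpihbp1 to Pecam1 FPKM was 1.56 to 2.17 in control and 2.32 to 4.45 with RAS, so that this ratio, which was formed after the values were seen, did not overlap between the groups. The ratio of Gpihbp1 to the summed markers was likewise apart, at 0.229 to 0.310 and 0.346 to 0.535. The ratio to Cdh5 overlapped, at 2.07 to 2.91 in control and 2.84 to 8.55 with RAS. No test was made on these ratios. Of single genes tested, 17.9% had ranges that did not overlap, and the like share for ratios was not computed.

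Brown and beige fat markers, like Gpihbp1, were higher on average with RAS. All 6 tested markers of the 8 had a higher mean with RAS (median log2 1.08; lowest limma adjusted p = 0.428), and the ranges of 2, Cidea and Elovl3, were apart. Cidea, which acts at lipid droplets in thermogenic adipocytes, was at 42.4, 16.5 and 1.38 FPKM in controls 1, 2 and 3 and at 46.8, 65.02 and 218 FPKM in RAS 1, 2 and 3. Ucp1, the first marker of this list, was at 33.8, 13.9 and 0.0343 FPKM in controls 1, 2 and 3. In RAS 1, 2 and 3 Ucp1 was at 4.90, 4.48 and 163 FPKM. Its RAS 1 and RAS 2 values lay below controls 1 and 2, so its higher RAS mean rested on RAS 3. RAS 3, the library with the highest Gpihbp1, also had the highest level of 7 of the 8 markers. The mean deviation of the 8 from their 6-library average was 1.90 in RAS 3 on the log2 scale. It was 0.47, -0.36 and -1.60 in controls 1, 2 and 3 and -0.33 and -0.08 in RAS 1 and 2. By this measure RAS 1 and RAS 2 lay below control 1, so the higher average with RAS was not shared evenly by the RAS libraries. The summed level of the 8 markers was 990 FPKM in RAS 3, 336 FPKM in control 1 and 63.6 to 222 FPKM in the other 4 libraries. Control 1 was second by these markers and had 158 FPKM of Gpihbp1, close to RAS 2 at 154 FPKM. The part of brown and beige fat content in the Gpihbp1 difference was not tested.

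**Figure D2:**
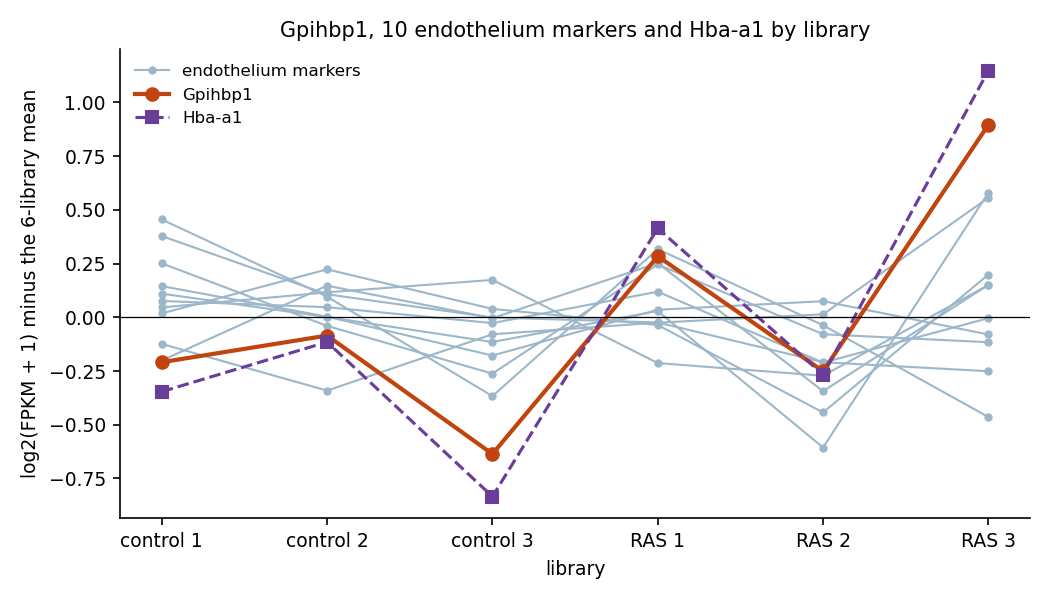
Level of Gpihbp1 (orange), 10 endothelium markers (pale blue) and the alpha globin gene Hba-a1 (violet, dashed) in each library, as log2(FPKM + 1) minus the gene's mean over the 6 libraries; lines only join the values of 1 gene. Gpihbp1 and Hba-a1 are lowest in control 3 and highest in RAS 3, while the endothelium markers do not share one order.

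The genes whose pattern over the 6 libraries was most like that of Gpihbp1 were Hba-a1, an alpha globin gene of red blood cells (Pearson r = 0.998 on log2 values), the proton-sensing receptor Gpr4 (0.986) and the antiproliferative gene Tob2 (0.979). Hba-a1 was at 454, 533 and 323 FPKM in controls 1, 2 and 3 and at 769.7, 479.7 and 1281 FPKM in RAS 1, 2 and 3. It has near-identical copies, so its own level is uncertain. For Lpl the most similar were Usp40 (0.987), Rb1 (0.986) and Zfp810 (0.986). The retinoblastoma gene Rb1 was at 15.6 to 19.5 FPKM. These correlations rest on 6 libraries and on the best of 12606 genes, so high values occur readily and no p is given; 51 named genes had an r above 0.95 with Lpl and 14 with Gpihbp1. The genes most like Lpl and those most like Gpihbp1 did not include each other or another of the 9.

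Set within each library, the ratio of Gpihbp1 to Lpl FPKM was 0.0789, 0.129 and 0.0862 in controls 1, 2 and 3 and 0.110, 0.0911 and 0.257 in RAS 1, 2 and 3. RAS 3 stood clear of the others, with the highest Gpihbp1 and the lowest Lpl of the 6. The groups overlapped in this ratio.

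Angptl4, the angiopoietin-like protein that inactivates the lipase in fat during fasting (NCBI gene 57875; chromosome 17, 33774900 to 33781575, minus strand), was at 372, 314 and 383 FPKM in the controls and at 290.1, 292 and 404 FPKM in RAS 1, 2 and 3. RAS 1 and RAS 2 lay below every control library and RAS 3 lay above every one. RAS minus control came to a log2 difference of -0.13 ± 0.19, with an interval of -0.58 to 0.32 (limma adjusted p = 0.843). It kept its sign in all 16 alternatives to this fit, between -0.30 and -0.05, though some of these cannot change the estimate. The ratio of Angptl4 to Lpl FPKM was 0.185 to 0.281 in control and 0.143 to 0.304 with RAS, overlapping throughout.

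Angptl2, a relative of Angptl4 that is secreted by adipose tissue and is known for its link to inflammation rather than for blocking the lipase, was at 72.6, 98.5 and 95.5 FPKM in controls 1, 2 and 3. In RAS 1, 2 and 3 it was at 92.6, 124 and 94.9 FPKM. Only control 1 and RAS 2 departed from the narrow band of 92.6 to 98.5 FPKM that held the other 4 libraries. Between the groups the log2 difference was 0.22 ± 0.18, with an interval of -0.20 to 0.65. In the table Angptl2 shares a locus (chromosome 2, 33136973 to 33371478) with Ralgps1; in GENCODE M21 it lies inside Ralgps1 on the opposite strand, with exons that do not overlap, and the labels name no strand-specific step.

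Among the angiopoietin-like genes outside the 9, Angptl8, an insulin-responsive gene that the table lists as Gm6484, was at 22.2, 4.62 and 4.27 FPKM in controls 1, 2 and 3 and at 7.93, 12.7 and 8.81 FPKM with RAS (log2 0.27 ± 0.54). Without control 1 its difference was 0.97. Angptl6 was at 1.61 to 4.23 FPKM. Neither reached an unadjusted p under 0.05, and Angptl1 and Angptl7 lay under the minimum mean of 1 FPKM.

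Apoe and Apoc1 are neighbours on chromosome 7, on the minus strand, at 19696244 to 19699166 and 19689481 to 19692658. Apolipoprotein E is the ligand by which remnant particles bind endocytic lipoprotein receptors, and in fat it is made by adipocytes and macrophages. Apolipoprotein C1 hampers both the lipase and receptor uptake. Apoe was the most abundant of the 9, at rank 9 of the whole table, at 2167, 2680.2 and 3355 FPKM in controls 1, 2 and 3 and at 2056, 2577 and 4183 FPKM in RAS 1, 2 and 3. RAS 1 was the lowest and RAS 3 the highest of the 6, so the RAS libraries enclosed the controls. The log2 difference was 0.06 ± 0.33, with an interval of -0.71 to 0.83 (limma adjusted p = 0.963). Its sign was negative without RAS 3 (-0.23) and positive without RAS 1 (0.29).

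Apoc1 was at 301, 122 and 209.9 FPKM in controls 1, 2 and 3 and at 84.9, 229 and 179 FPKM in RAS 1, 2 and 3, the widest span of the 9 with a highest to lowest ratio of 3.55. RAS 1 was the lowest library and control 1 the highest, and the other 4 lay mixed between them. The log2 difference was -0.38 ± 0.44, with an interval of -1.41 to 0.66 (limma adjusted p = 0.788), and it was 0.03 without RAS 1. Apoc1 has the shortest transcript of the 9, at 532 bases in GENCODE M21, and rested on 244 to 966 assigned reads per library. The libraries did not rank alike for the 2 neighbours. The ratio of Apoc1 to Apoe FPKM was 0.139 in control 1, 0.0887 in RAS 2 and 0.0413 to 0.0626 in the other 4 libraries.

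**Figure D3:**
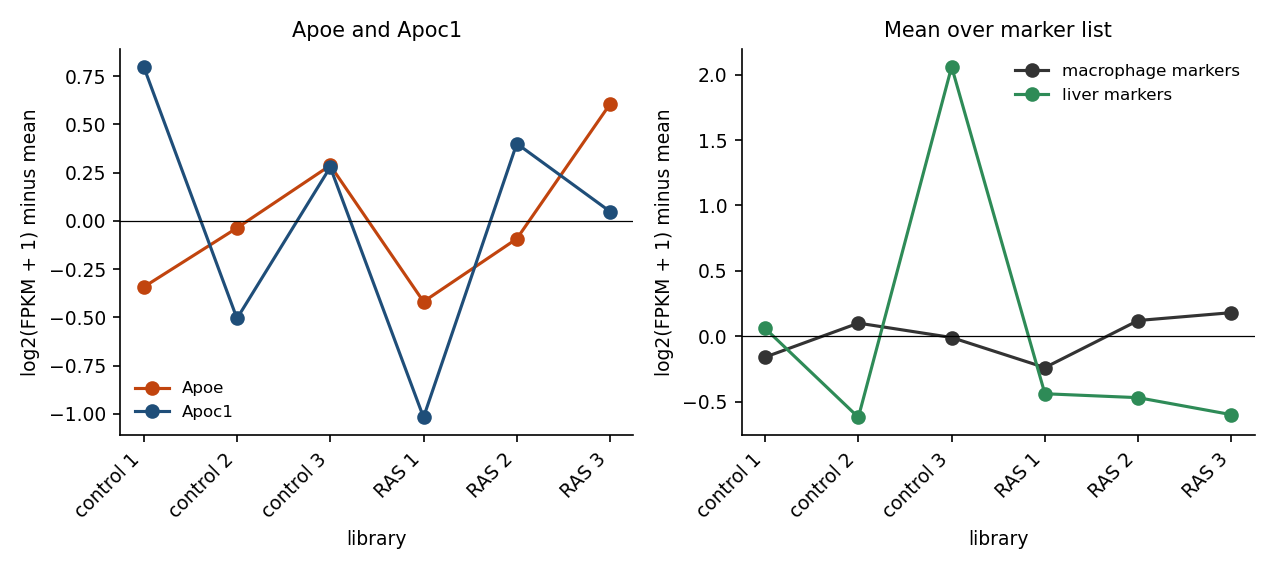
Left, Apoe and Apoc1 in each library as log2(FPKM + 1) minus the gene's mean over the 6 libraries; right, the mean of the same quantity over 10 macrophage markers and 10 liver markers. Apoe and the macrophage markers are lowest in RAS 1 and highest in RAS 3, Apoc1 is highest in control 1, and the liver markers stand at 2.06 in control 3.

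Macrophage markers, which include other genes of the cells that make Apoe, split evenly, with 5 of 10 higher and 5 lower with RAS (median log2 0.05). Their summed level was 577 to 844 FPKM in control and 626 to 809 FPKM with RAS, and none was at 0. Their mean deviation from the 6-library average was -0.24 in RAS 1, -0.16 in control 1 and 0.18 in RAS 3, the same 3 libraries that were lowest, second lowest and highest for Apoe. The order differed in control 2, control 3 and RAS 2, where the markers were at 0.10, -0.01 and 0.12 and Apoe at -0.04, 0.29 and -0.09. By summed level, control 1 was the lowest library for the markers and control 3 the highest. The part of macrophage content in the Apoe values was not tested.

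Of 10 liver markers, 7 had their highest level in control 3, which touches the apolipoproteins. Apoa2, a protein of high density lipoprotein made by liver, was at 36.5 FPKM in control 3 and at 2.54 FPKM in control 1, and is listed at 0 in the other 4 libraries. Apoa1, the main protein of that particle, was at 18.3 FPKM in control 3 and at 0 to 0.757 FPKM in the others. The level of Alb (albumin) ranged from 6.51 to 14.6 FPKM outside control 3 and reached 88.4 FPKM within it. Of the 8 tested, 7 had a lower mean with RAS (median log2 -1.14), and Ttr, Fga, Fgb, Apoa1 and Apoa2 were at 0 in at least 1 library. The remaining 3 of the 10 were not highest in control 3: Serpina1a and Serpina1c were highest in control 1, and Trf, the transferrin gene, was highest in RAS 3 at 1317 FPKM. The summed level of the 10 was 786.5 to 1189 FPKM in control and 944 to 1329.9 FPKM with RAS, most of it Trf in every library, so that the sum was higher on average with RAS while the median of the tested markers was lower. Apoe and Apoc1 were not at their highest in control 3. Without that library the log2 difference was 0.22 for Apoe and -0.34 for Apoc1.

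Apoc2, the activator that the lipase needs, stands in the same gene cluster and was at 2.12, 1.37 and 4.79 FPKM in controls 1, 2 and 3 and at 1.22, 2.13 and 1.39 FPKM with RAS. Its log2 difference was -0.46 ± 0.32, and -0.09 without control 3. Apoc4 followed the same order in control, at 7.31 FPKM in control 3 and 0.268 to 1.35 FPKM in the other libraries. Apoc2 rested on only 7 to 33 assigned reads per library and Apoc4 on 1 to 26, so counting error may be a large part of their spread.

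Vldlr, the receptor that holds triglyceride-rich particles and the lipase at the cell surface (NCBI gene 22359; chromosome 19, 27217020 to 27254231, plus strand), was nearly level. It was at 18.3, 13.6 and 13.9 FPKM in controls 1, 2 and 3 and at 15.3, 15.8 and 13.6 FPKM in RAS 1, 2 and 3. Control 1 was the highest library, and the others spanned 13.6 to 15.8 FPKM. The log2 difference was -0.03 ± 0.14, with an interval of -0.36 to 0.30 (limma adjusted p = 0.960), the narrowest of the 9. Its sign turned in 7 of 16 alternatives, within -0.10 to 0.16.

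Lrp1, the large endocytic receptor for remnant particles and protease complexes (NCBI gene 16971; chromosome 10, 127538157 to 127621148, minus strand), was at 45.05, 65.2 and 56.2 FPKM in controls 1, 2 and 3. In RAS 1, 2 and 3 it was at 50.9, 50.5 and 32.7 FPKM. RAS 3 was the lowest library, and RAS 1 and RAS 2 fell between the controls. The means were 55.5 ± 10.1 and 44.7 ± 10.4 FPKM, and the log2 difference was -0.32 ± 0.22, with an interval of -0.82 to 0.19 (limma adjusted p = 0.653). Without RAS 3 the difference was -0.11.

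Lrp1 has a transcript of 14888 bases, by far the longest of the 9, and long transcripts as a class were lower in RAS 3. The median deviation from the 6-library mean was -0.30 on the log2 scale in RAS 3 for the 629 tested genes with a transcript of 8000 bases or more, and 0.33 for the 664 with less than 1000 bases. In the other 5 libraries the same medians were 0.01 to 0.10 and -0.21 to 0.03. Lrp1 itself stood at -0.57 in RAS 3. The heparan sulfate proteoglycan Hspg2, another gene with a very long transcript, was at 63.7 to 73.0 FPKM in 5 libraries and at 32.8 FPKM in RAS 3. The part of transcript length in the Lrp1 value was not tested. Fibroblast and preadipocyte markers, from cells that also make Lrp1, had lower means with RAS in 6 of 7 tested cases (median log2 -0.25), with summed levels of 1602 to 2114 FPKM in control and 1237 to 1955 FPKM with RAS.

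**Figure D4:**
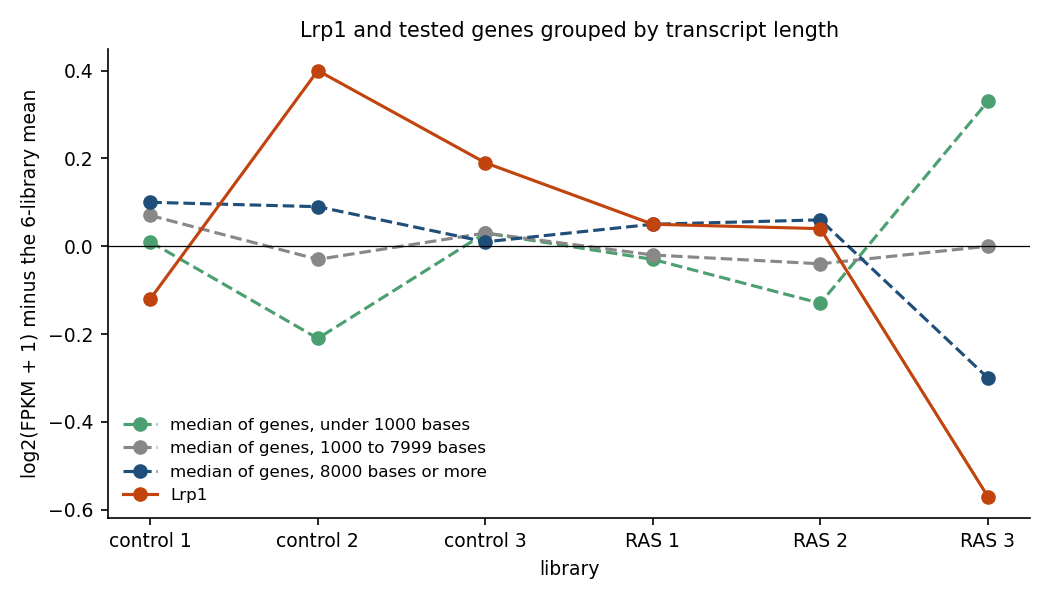
Lrp1 (orange) and the median of tested genes in 3 classes of transcript length, in each library, as log2(FPKM + 1) minus the mean over the 6 libraries; lines only join the values of 1 series. In RAS 3 the longest class is at -0.30, the shortest at 0.33 and Lrp1 at -0.57.

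In order of level, Apoe lay above Lpl in all 6 libraries, and Lpl above Angptl4, without overlap of their ranges. Angptl4 exceeded Gpihbp1 in all 6 libraries although their ranges overlapped. Gpihbp1 exceeded Apoc1 in 3 of 6 libraries, so those neighbours were not ordered, and Apoc1 exceeded Angptl2 in 5 of 6. Angptl2 lay above Lrp1 and Lrp1 above Vldlr without overlap. Vldlr exceeded Lmf1 in 4 of 6 libraries, a difference within their spread. FPKM is scaled for transcript length, which allows this order between genes only roughly. Levels still differed by transcript length in RAS 3, and Apoc1, at 532 bases, belongs to the shortest class.

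The members also differed in how steady they were. The ratio of the highest to the lowest library was 1.35 for Vldlr, 1.38 for Lmf1, 1.39 for Angptl4, 1.53 for Lpl and 1.71 for Angptl2. It was 1.99 for Lrp1, 2.03 for Apoe, 2.91 for Gpihbp1 and 3.55 for Apoc1. The genes of the lipase, its maturation and its main inhibitor in fat thus varied less across these 6 libraries than the endothelial carrier and the apolipoproteins. RAS 3 was the highest library for Gpihbp1, Apoe and Angptl4 and the lowest for Lpl, Lrp1 and Vldlr. Those ratios rest in part on it and were not recomputed without it. Apoc1 rested on as few as 244 assigned reads.

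Other genes of lipoprotein handling gave a similar picture. Of 55 such genes, 54 were found and 41 were tested, and 15 had a higher and 26 a lower mean in the RAS group (median log2 -0.09). None passed the limma test after adjustment (lowest adjusted p = 0.325). At an unadjusted p under 0.05 there were 2 on the higher side, where 3.86% of all genes tested lay, and 1 on the lower side, where 6.41% lay. The FPKM ranges were apart for 2 on the higher and 5 on the lower side, against 5.42% and 12.5% of all genes tested.

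**Figure D5:**
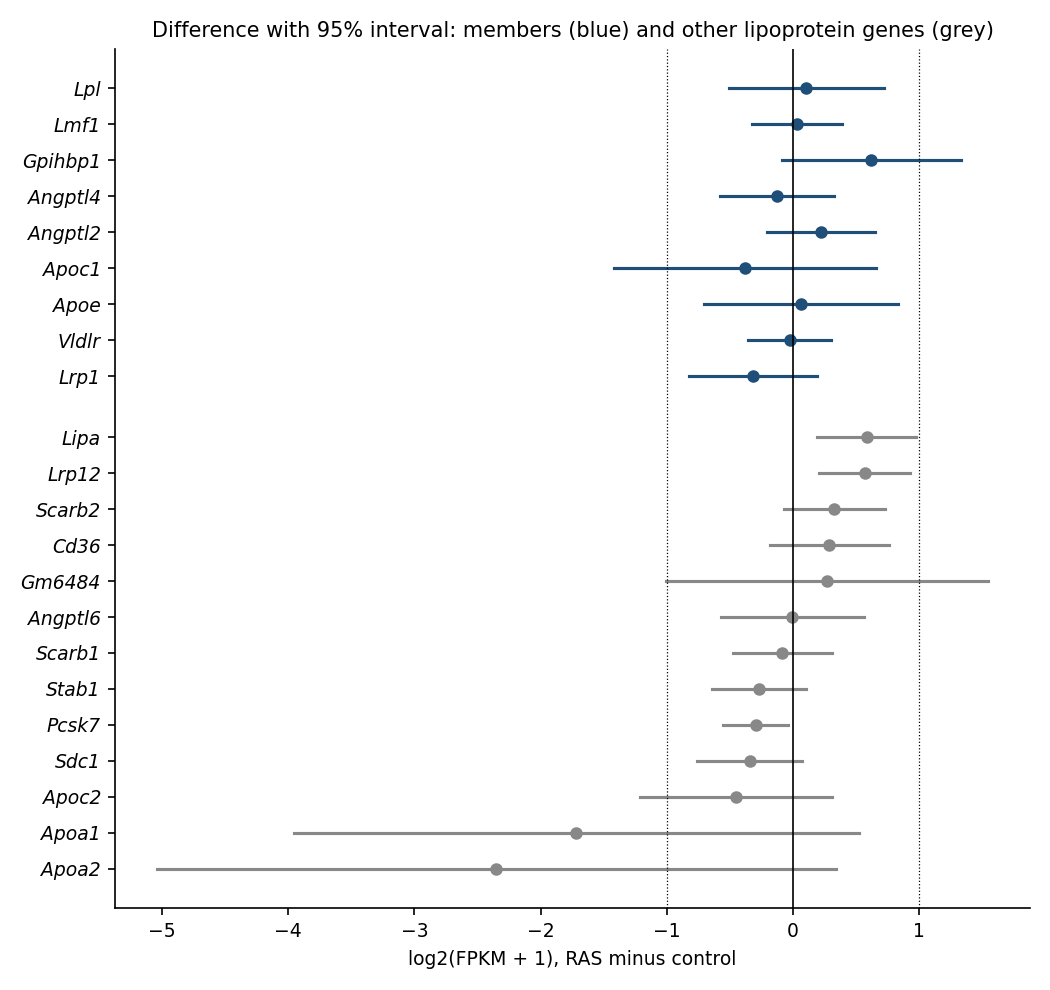
Log2 difference, RAS minus control, on the log2(FPKM + 1) scale with its 95% interval for the 9 genes (blue) and 13 other lipoprotein genes (grey); dotted lines mark a log2 change of 1 in either direction. The intervals of all 9 include 0, and those of Gpihbp1 and Apoc1 extend past a dotted line.

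Among genes of lipase processing and transport, Lipa, the lysosomal acid lipase that breaks down lipids of particles after uptake, was at 32.0, 28.7 and 29.0 FPKM in the controls and at 35.5, 53.6 and 48.5 FPKM with RAS. Its groups did not overlap (log2 0.58 ± 0.17; limma unadjusted p = 0.010, adjusted p = 0.350). Pcsk7, a proprotein convertase of the family that cleaves the lipase and its angiopoietin-like inhibitors, was at 10.7 to 11.8 and 7.95 to 9.72 FPKM (log2 -0.30 ± 0.11), also without overlap. Sdc1, a heparan sulfate proteoglycan that binds lipoproteins, was at 6.97 to 8.74 and 4.58 to 7.69 FPKM (log2 -0.34 ± 0.18), with overlap, and its difference was -0.17 without RAS 1.

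Lrp12, a membrane receptor related to Lrp1, was at 2.81 to 3.797 FPKM in control and 4.19 to 5.91 FPKM with RAS, without overlap (log2 0.57 ± 0.15; limma unadjusted p = 0.00739, adjusted p = 0.325).

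Among the other receptors, Cd36, the scavenger receptor that takes up the fatty acids the lipase releases, was at 1428, 1167 and 1082 FPKM in the controls and at 1647, 1423 and 1396 FPKM with RAS (log2 0.29 ± 0.20). Its RAS libraries overlapped only with control 1. Scarb1, the receptor for high density lipoprotein, was at 74.4 to 94.6 and 74.7 to 97.9 FPKM (log2 -0.09 ± 0.17). The lysosomal relative Scarb2 (log2 0.33 ± 0.17) and the endocytic receptor Stab1 (log2 -0.27 ± 0.16) did not reach an unadjusted p under 0.05 either. The Scarb2 difference was 0.49 without control 1, and that of Stab1 was -0.18 without control 2 and -0.41 without RAS 2.

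The labelled tissue was checked against 8 adipocyte markers, all of which were present in every library, with Adipoq, the fat cell hormone adiponectin, at 2357 to 3459.6 FPKM. Their means were higher with RAS in 6 and lower in 2 of the 8 (median log2 0.11), and their summed level was 32377 to 36635 FPKM in control and 41921 to 61385 FPKM with RAS. That sum is dominated by the fatty acid carrier Fabp4. Lower means with RAS were seen for 5 of 6 markers of smooth muscle and pericytes and for 4 of 4 tested markers of skeletal muscle. Each library held 14.4 to 15.8 M assigned reads.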

How the data were processed

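The authors deposited 1 table of 19928 genes with FPKM values and scaled counts per sample. The submitters' processing notes list TopHat2 2.0.9 and Cufflinks 2.1.1, while build and filters were not given in the sources used here. Per the file headers the second measure is a count, but the deposited values are a signal scaled by 1 value per library: 99.29 to 99.38% of values under 1000 reads were whole multiples of it within 0.02 of a read. It gave assigned reads, and no count model was run. Of loci found in GENCODE M21 (GRCm38), 99.67% overlapped the same gene. The treatment protocol calls the RAS mice DH, so the DH columns are the RAS libraries, and the HC columns were assigned to control by elimination; another 4 value columns were left unused.

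All genes whose mean FPKM was 1 or more were tested with limma 3.58.1 (R 4.3.3; eBayes with a trend) on log2(FPKM + 1), two-sided, with Benjamini-Hochberg adjustment over 12606 genes and a threshold of 0.05. The test was checked on simulated data. This scale understates the change of low genes. Genes were chosen with earlier results of these data known: the 9 members, and from a list of 55 other lipoprotein genes up to 3 per group by unadjusted p plus Apoc2, Cd36 and Scarb1; some genes of lipoprotein handling are not reported here. Markers were taken from fixed lists, at most 3 per cell type, and the genes most like Lpl and Gpihbp1 were the 3 highest by Pearson correlation. Apoc4, Hspg2, Elovl3, Fga, Fgb, Trf, Serpina1a and Serpina1c were named after their values were seen. Replicate numbers were not used to match samples: the deviations of same-numbered samples correlated at 0.096 to 0.219, not all over 0.1. Those of differently numbered samples correlated lower, at -0.170 to 0.011. The labels do not say whether equal numbers are matched, so a pairing is neither shown nor excluded. Alternatives were a pseudocount of 0.1, no minimum or a mean of at least 5 FPKM, 2 other scalings, a robust variance model, array weights, a replicate block and omission of each library in turn. Chosen after seeing the data were the scaled counts and the joint omission of control 1 and RAS 3. Transcript lengths are the longest GENCODE transcript, found for 95.6% of genes tested.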

Additional observations from a re-analysis of the deposited data

How the results depend on the processing

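None of the 9 genes passed the limma threshold in any of 16 alternatives (lowest adjusted p = 0.370, for Lpl at a log2 difference of 0.45 (0.452) without control 1 and RAS 3). Gpihbp1 (0.327 to 0.90), Angptl2 (0.084 to 0.302), Angptl4 (-0.300 to -0.046) and Lrp1 (-0.456 to -0.111) kept their sign in all of them. The sign turned in 16 of 144 cases, and the cause was not tested. These cases include settings that leave every log2 difference as it was: both other FPKM minimums, the robust variance model and the replicate block. No sign could turn in those. Leaving out 1 library gave log2 differences of -0.042 to 0.293 for Lpl, -0.068 to 0.150 for Lmf1, -0.100 to 0.101 for Vldlr, -0.225 to 0.287 for Apoe and -0.727 to 0.035 for Apoc1, and for other genes -0.104 to 0.965 for Angptl8, -0.250 to 0.251 for Angptl6 and -0.211 to -0.018 for Scarb1. Vldlr was at 0.012 under quantile normalization, 0.014 with median-ratio size factors, 0.079 with array weights, 0.077 with the scaled counts and 0.160 without control 1 and RAS 3. Apoe was at -0.00 under quantile normalization, -0.251 with array weights and -0.381 without control 1 and RAS 3. Angptl6 was at 0.043 under quantile normalization and 0.027 with median-ratio size factors, Scarb1 at 0.031 with array weights and 0.036 without control 1 and RAS 3, and Angptl8 at 1.023 without both libraries.

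Over all genes, 0 passed after adjustment; leaving out 1 library gave 0 to 2, and leaving out control 1 and RAS 3 gave 3, none of them among the 9 genes or the other lipoprotein genes. Genes at an unadjusted p under 0.05 numbered 1294, and 911 to 1850 in the alternatives. With the replicate number as a block, a pairing that the labels do not give, there were 1663, with 0 past the adjusted threshold. The log2 differences of the 9 genes cannot change under this block, because each replicate number occurs once in each group. With 3 libraries per group, an exact permutation test of 1 gene cannot go below 0.10.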
